A study of Homo sapiens with 4 samples.

Results

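FAIRE sites, short stretches of DNA that are free of nucleosomes, were examined around 9 genes that encode transcription factors of adrenal development and partners of the nuclear receptor SF-1. The genes were NR5A1, NR5A2, NR0B1, NR0B2, GATA4, GATA6, WT1, CITED2 and PKNOX1. A site was assigned to a gene when it lay within 100 kb of the gene body (GENCODE annotation, hg19/GRCh37). By this rule 39 of the 34423 sites of the basal list and 37 of the 31219 sites of the SF-1 overexpression list were assigned, 76 of 65642 in all, and no site was assigned to more than 1 of the 9 genes.

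The cells, H295R/TR SF-1, derive from 1 subclone of the human adrenocortical tumour line H295R and carry an SF-1 copy inducible by doxycycline. Basal cells received no doxycycline, and overexpressing cells were treated with it for 3 days. Each condition had 1 FAIRE library with its own site list and 1 input DNA library that was not used here. Doxycycline and SF-1 dosage cannot be told apart, and no difference between the lists has a replicate check. The lists hold no read counts, so the sequencing depth is unknown, and a gene without a site is one for which none was listed. A site listed in 1 condition alone may be open in fewer cells or less open in each cell, which cannot be told apart in bulk chromatin.

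SF-1, the product of NR5A1, drives the formation of the adrenal gland and the gonads and switches on the enzymes of steroid synthesis. In the mouse, NR5A1 introns hold tissue-specific enhancers, among them a fetal adrenal enhancer on which PREP1 (the product of PKNOX1) acts with HOX factors and on which SF-1 itself acts later. WT1 and CITED2 raise NR5A1 expression in the adrenal primordium, and GATA4 and GATA6 are zinc-finger factors of the gonad and adrenal cortex that act together with SF-1. NR5A2 (LRH-1) is the closest relative of SF-1 and binds the same motif. NR0B1 (DAX-1), mutated in adrenal hypoplasia congenita, and NR0B2 (SHP) are receptors without a DNA-binding zinc finger domain that repress transcription by SF-1 and LRH-1.

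The lists were checked for the identity of the cells by sites at promoters, here within 1000 bp of an annotated transcript start. Of 7 adrenocortical genes, 3 (42.9%) had a basal promoter site (STAR, CYP17A1 and CYP21A2). With overexpression 6 (85.7%) had one, which added CYP11A1, MC2R and SCARB1. HSD3B2 had none. Of 9 genes of fibroblasts, endothelium, blood, liver and chromaffin cells, 1 had a promoter site, in both lists (COL1A1). Over all 20163 protein-coding genes, 46.7% (basal) and 48.9% (overexpression) had a promoter site. The basal share of the adrenocortical genes was thus not above that of all genes.

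Motifs were looked up in the reference sequence of each site, on both strands. The SF-1 motif was CAAGGTCA or CAAGGCCA, and a site could hold other motifs over the same bases. No site inside a gene body or promoter of the 9 genes held the SF-1 motif. The sequences that carry the main observations were therefore of 2 kinds, namely the NR5A1 sites at its own promoter and intron, and the sites further out that held the motif. All are from GRCh37.

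Both sites within NR5A1 or at its promoter were listed in the basal condition alone. The promoter site, chr9:127269701-127269849, is shown on the minus strand, which is the strand of the gene. Capitals mark an E-box (CACGTG) and a stretch where a CCAAT box and its reverse complement overlap. The site of intron 6, chr9:127250151-127250399, is also shown on the minus strand, with the reverse complement of a GATA motif (TGATAA) in capitals.
NR5A1 promoter: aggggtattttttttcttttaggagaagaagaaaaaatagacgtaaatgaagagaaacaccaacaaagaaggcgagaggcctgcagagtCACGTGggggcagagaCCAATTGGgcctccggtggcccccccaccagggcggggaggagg
NR5A1 intron 6: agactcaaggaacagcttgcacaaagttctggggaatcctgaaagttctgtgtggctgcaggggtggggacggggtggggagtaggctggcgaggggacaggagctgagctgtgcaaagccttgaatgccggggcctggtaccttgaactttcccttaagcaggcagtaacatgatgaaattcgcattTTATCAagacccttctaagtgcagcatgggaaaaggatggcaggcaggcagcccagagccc

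Near NR0B1, each list held 1 site with the SF-1 motif CAAGGTCA, and neither site was in the other list. The overexpression-only site was chrX:30330601-30330699 and the basal-only site chrX:30381251-30381449. Both are shown on the plus strand with the motif, or its reverse complement, in capitals.
NR0B1 overexpression-only: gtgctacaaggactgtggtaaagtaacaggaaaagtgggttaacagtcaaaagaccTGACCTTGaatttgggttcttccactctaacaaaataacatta
NR0B1 basal-only: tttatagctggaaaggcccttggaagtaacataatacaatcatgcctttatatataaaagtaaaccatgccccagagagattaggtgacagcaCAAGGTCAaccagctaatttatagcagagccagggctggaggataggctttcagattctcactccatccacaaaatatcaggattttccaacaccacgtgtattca

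The motif with C in place of T (CAAGGCCA) stood in 3 further sites that are shown as the motif sites in the windows of NR5A1, WT1 and CITED2. They were the shared site chr9:127191601-127191899 downstream of NR5A1, which held it on both strands, the basal-only site chr11:32521501-32521799 upstream of WT1 and the overexpression-only site chr6:139787351-139787649 upstream of CITED2. All are on the plus strand with the motif or its reverse complement in capitals.
NR5A1 downstream: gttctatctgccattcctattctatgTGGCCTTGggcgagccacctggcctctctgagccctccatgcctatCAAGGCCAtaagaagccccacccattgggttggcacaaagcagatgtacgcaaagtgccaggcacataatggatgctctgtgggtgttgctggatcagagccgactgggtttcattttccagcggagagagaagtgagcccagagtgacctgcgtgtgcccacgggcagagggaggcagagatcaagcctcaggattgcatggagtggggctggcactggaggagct
WT1 upstream: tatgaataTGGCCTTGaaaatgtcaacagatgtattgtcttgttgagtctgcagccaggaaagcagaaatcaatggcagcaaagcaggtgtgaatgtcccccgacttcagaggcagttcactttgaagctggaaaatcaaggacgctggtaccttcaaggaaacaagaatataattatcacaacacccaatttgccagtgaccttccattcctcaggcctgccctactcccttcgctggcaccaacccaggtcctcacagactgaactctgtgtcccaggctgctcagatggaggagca
CITED2 upstream: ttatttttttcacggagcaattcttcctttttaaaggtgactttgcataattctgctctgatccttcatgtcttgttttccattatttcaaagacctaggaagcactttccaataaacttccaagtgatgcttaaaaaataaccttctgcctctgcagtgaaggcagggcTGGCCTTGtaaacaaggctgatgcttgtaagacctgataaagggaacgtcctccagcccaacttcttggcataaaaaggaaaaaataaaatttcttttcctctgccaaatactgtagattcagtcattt

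The number of sites per gene ran from 0 to 12. NR5A1 had the most in the basal list, with 12 basal and 8 overexpression sites, and PKNOX1 had 7 and 8, equal to NR5A1 in the overexpression list. NR0B2 had 6 in each list. The gene encoding GATA4 had 5 in each, CITED2 had 4 and 6, NR0B1 had 2 and 3, WT1 had 2 and 0, and GATA6 had 1 in each. NR5A2 had no site in either list. The median over the 9 genes was 4.0 basal and 5.0 overexpression sites, against 5.0 in both for all protein-coding genes (quartiles 2.0 and 8.0), so most of the 9 genes lay within the usual range.

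Of the 9 genes, 2 had more basal than overexpression sites (NR5A1 and WT1), which 39.5% of all protein-coding genes had. The reverse held for 3 (NR0B1, CITED2 and PKNOX1), against 37.3% of all protein-coding genes. The remaining 4 had equal numbers. Only the count for NR5A1 differed by more than 2 sites between the lists.

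**Figure D1:**
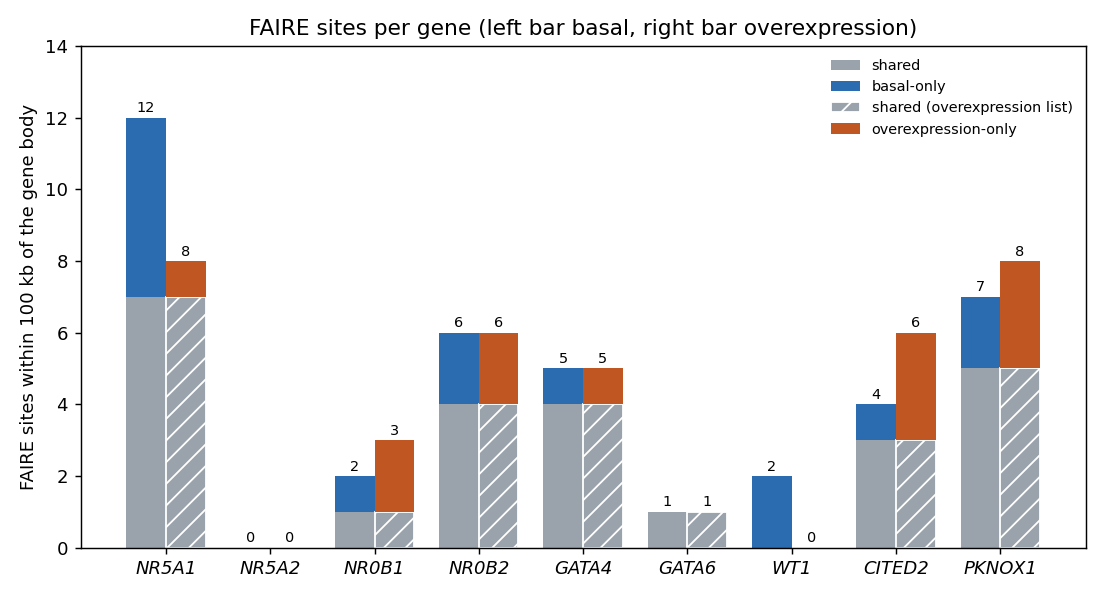
Number of FAIRE sites within 100 kb of each gene body in the basal list (left bar) and the overexpression list (right bar), split into sites that are shared between the lists (grey) and sites of that list alone (colour). NR5A1 had 12 and 8 sites, of which 5 and 1 were in that list alone, and WT1 had 2 basal-only sites and no overexpression site.

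Sites with an overlap of 1 bp or more between the lists were taken as shared, and the others as basal-only or overexpression-only. Near the 9 genes 14 of 39 basal sites were basal-only (35.9%, exact 95% interval 21.2 to 52.8 for counting error only), where 45.8% of all basal sites were. In the overexpression list 12 of 37 were overexpression-only (32.4%, 18.0 to 49.8), where 40.3% of all overexpression sites were. Both intervals include the share over the whole list at this window of 100 kb. Within 50 kb the basal-only share was 17.4% (4 of 23, 4.95 to 38.8), an interval that lies below 45.8%. Within 10 kb it was 30.8% (4 of 13, 9.09 to 61.4), so the comparison depended on the window. The overexpression-only share within 50 kb was 24.0% (6 of 25, 9.36 to 45.1), an interval that includes 40.3%. The shares of all sites were not limited to a window around genes, and sites of 1 window are not independent. The 25 shared sites of each list made up 64.1% and 67.6%.

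NR5A1, which lies on the minus strand of chromosome 9 (127243515 to 127269699, 7 exons), held 1 site in its body and 1 at its promoter, and both were basal-only. The promoter site was narrow, at 149 bp, and its centre lay 97 bp upstream of the canonical start. It stood at 74.3% of the basal list, where place is the running peak number as a percentage of the list and 0 is the front. The quantity that set the peak order is not given in the sources used here, and wider sites stood earlier. The E-box of this site was centred 80 bp upstream of the start, and the CCAAT boxes 64 and 61 bp upstream. E-boxes are known to bind USF proteins and CCAAT boxes NF-Y, both present in most cells. Of all 149-bp basal sites 2.99% held an E-box and 21.8% a CCAAT box, and of all 149-bp overexpression sites 2.5% and 21.9%.

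A promoter site in the basal list alone was found for 1 of the 9 genes, NR5A1, and for 5.04% of all protein-coding genes. The intron 6 site of NR5A1 was wider (249 bp) and stood earlier, at 33.2% of the basal list. Its GATA motif is on the plus strand at 127250206 to 127250211, and 31.7% of all basal sites held such a motif. In the overexpression list the site closest to NR5A1 lay 18852 bp upstream, within NR6A1. No site of either list touched an NR5A1 exon. Reads from an inducible SF-1 cDNA would map to exons, but the lists hold no read counts, so such reads could not be examined.

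The other 10 basal and 8 overexpression sites of the NR5A1 window lay in or near its neighbours, PSMB7 (a proteasome subunit), ADGRD2 (an adhesion receptor) and NR6A1 (the orphan receptor GCNF). The PSMB7 promoter site, chr9:127177601-127177949, had the earliest place of all sites near the 9 genes in both lists, 0.872% basal and 1.76% overexpression, and the same width of 349 bp in each. It is the promoter of a gene used in all cells.

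Of 7 shared sites in the NR5A1 window, 6 stood later in the overexpression list and 5 were narrower there. The site with both SF-1 motifs, 78048 and 78002 bp downstream of the NR5A1 start, went from 499 bp at 16.0% (basal) to 299 bp at 66.4% (overexpression). An NR6A1 site, chr9:127299051-127299349 in the basal list, went from 299 to 149 bp and from 34.5% to 97.2%. The site 59 kb downstream near ADGRD2 went from 349 to 299 bp and from 14.7% to 36.0%. These were the 3 largest moves towards the end of the list in this window, and none of the sites lies in NR5A1 itself. A site of the PSMB7 body with CAAGGTCA at 127171955 to 127171962 went from 299 to 249 bp and from 27.6% to 42.6%. The earliest NR6A1 site went from 499 to 349 bp and from 4.41% to 15.3%. Movement in the other direction was seen at 1 site, within NR6A1, which went from 199 to 249 bp and from 62.7% to 27.8%.

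The 3 basal-only sites of the neighbours were chr9:127148501-127148699 and chr9:127173851-127174149 within PSMB7 and chr9:127337201-127337449 within NR6A1. All 3 held the AP-1 motif (TGACTCA or its reverse complement TGAGTCA), the site of JUN and FOS proteins. The basal-only sites at the NR5A1 promoter and in its intron 6 did not. Nor did the single overexpression-only site of the window, chr9:127147351-127147599 at an internal start of PSMB7. Counting shared sites too, the NR5A1 window had the AP-1 motif in 5 of 12 basal and 1 of 8 overexpression sites, and with 1 basal site near CITED2 these were all the AP-1 matches near the 9 genes. Over the whole window set this gave 6 of 39 basal sites (15.4%, 5.86 to 30.5) against 6.95% of all basal sites, and 1 of 37 overexpression sites (2.7%, 0.0684 to 14.2) against 5.59% of all overexpression sites, and both intervals include the background share.

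**Figure D2:**
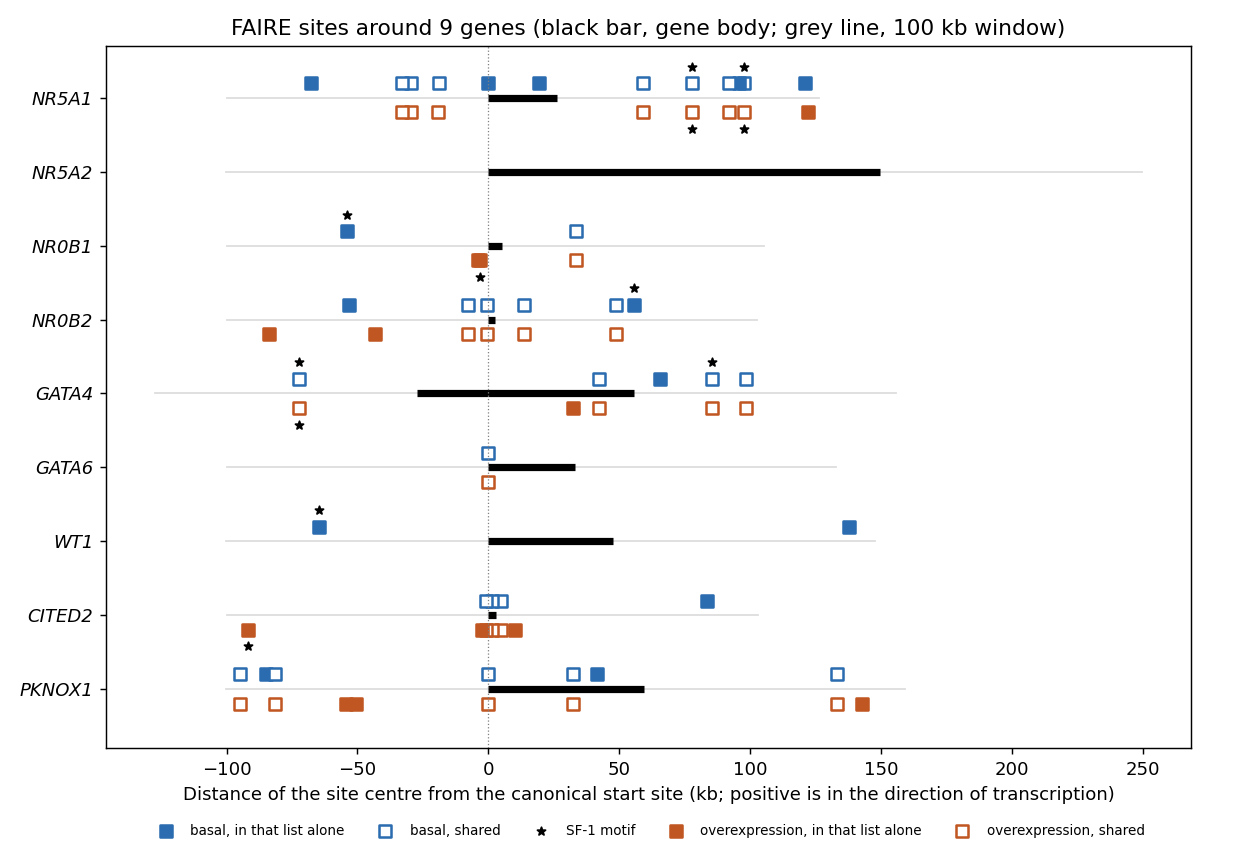
Position of every site around the 9 genes, as the distance in kb of the site centre from the canonical start in the direction of transcription, with basal sites above and overexpression sites below each gene. Filled squares are sites of that list alone, open squares are shared sites and stars mark sites with the SF-1 motif, none of which lies in a gene body or at a promoter of the 9 genes.

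NR5A2 (chromosome 1, 199996742 to 200146548) had no site within 100 kb in either list, as was the case for 4.57% of all protein-coding genes. The closest basal site lay 232553 bp away (chr1:200379101-200379399, 299 bp, 21.5% of the list) and the closest overexpression site 176953 bp away (chr1:200323501-200323649, 149 bp, 87.1%). No other protein-coding gene lies in this window, so the whole stretch around LRH-1 was without listed open chromatin.

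NR0B1 (X chromosome, 30322323 to 30327507, minus strand) had no site in its body or at its promoter in either list. The overexpression list held 2 sites just upstream, chrX:30330601-30330699 and chrX:30331401-30331499, whose near ends were 3094 and 3894 bp from the gene body. Neither was in the basal list. Both were of 99 bp and stood near the end of the list, at 94.4% and 96.0%, among the last sites to be listed. The nearer one held CAAGGTCA on the minus strand, 3154 bp upstream of the start and 10 bp from the centre of the site. Of all 99-bp overexpression sites 5.98% held the SF-1 motif.

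The basal-only site of NR0B1, 53744 bp upstream, was of 199 bp at 67.7% of the list. Its CAAGGTCA was 2 bp from the site centre, and 11.1% of all 199-bp basal sites held the motif. The shared site, 28374 bp downstream, was of 99 bp in the basal and 149 bp in the overexpression list and stood at 99.4% and 92.3%. All sites around NR0B1 were thus at most 199 bp wide and stood no earlier than 67.7% of their list.

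NR0B2 (chromosome 1, 27237980 to 27240466, minus strand) had a shared promoter site that was wider and earlier in the overexpression list. It was chr1:27240751-27240949 in the basal list, 199 bp at 84.6%, and chr1:27240751-27241049 in the overexpression list, 299 bp at 21.8%. This was the largest move towards the front among the 25 shared sites. The site lies 285 bp upstream of NR0B2 and also within the body of NUDC, a dynein-associated protein gene on the other strand, so that it cannot be given to 1 gene. It held no SF-1 motif.

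The other sites of the NR0B2 window lay in or near protein-coding neighbours, of which the window holds 8. The NUDC promoter (349 bp, 7.84% and 8.06%) and a site near SFN (349 bp, 9.94% and 7.83%) had the same width in both lists, as had a site at the GPATCH3 and NUDC starts (149 bp, 82.8% and 83.7%). Basal-only was chr1:27184451-27184849, of 399 bp at 18.2% near ZDHHC18, the widest condition-only site of either list near the 9 genes, with CAAGGTCA at its centre. The second basal-only site, near KDF1, was of 199 bp at 70.0%. The overexpression-only sites lay within KDF1 (299 bp, 11.6%) and TRNP1 (199 bp, 81.4%). Both held a match to the CTCF consensus, as did the basal-only site near ZDHHC18. Such a match stood in 17.5% of all basal and 16.0% of all overexpression sites.

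The gene of GATA4 (chromosome 8, 11534468 to 11617511) had no promoter site in either list, and the site within its body at chr8:11603901-11604049 in intron 2 was shared. It went from 149 bp at 81.6% of the basal list to 199 bp at 57.2% of the overexpression list. A further site of intron 2, chr8:11593951-11594149, was overexpression-only (199 bp, 80.5%). A shared site 44969 bp upstream, chr8:11489201-11489499, was of 299 bp in both lists at 19.1% and 33.7% and held the SF-1 motif in both.

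Downstream of the GATA4 gene, chr8:11647201-11647449 narrowed from 249 to 149 bp and moved from 45.0% to 87.6%, and its SF-1 motif lay in the part that was in the basal site alone. The remaining sites were at promoters of neighbours. The FDFT1 promoter, of squalene synthase, was shared with 349 bp in each list and stood at 19.1% and 7.01%. The NEIL2 promoter was basal-only (199 bp, 73.0%).

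GATA6 (chromosome 18, 19749550 to 19782491) had a single site, at its promoter, and it was shared. It was chr18:19749401-19749499 in the basal list, 99 bp at 91.4%, and chr18:19749351-19749549 in the overexpression list, 199 bp at 63.9%. The centre was 100 bp upstream of the start in both. The same stretch is part of the antisense gene GATA6-AS1, and no other protein-coding gene lies in the window.

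WT1 (chromosome 11, 32409321 to 32457110, minus strand) had 2 sites in the basal list and none in the overexpression list. Neither was close to the gene. The upstream site, in the antisense gene WT1-AS, lay 64391 bp away (299 bp, 54.1%) and held CAAGGCCA at 32521509 to 32521516, far from its centre (138 bp). The downstream site, chr11:32319201-32319399, lay 89922 bp away (199 bp, 80.0%). In the overexpression list the closest site was 232022 bp from the gene (chr11:32177001-32177299, 299 bp, 72.5%). No other protein-coding gene lies in the window.

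CITED2 (chromosome 6, 139692944 to 139695785, minus strand) had shared sites upstream of the gene, in its second exon and just downstream, and all 3 were later and narrower in the overexpression list. The upstream promoter site went from 399 to 349 bp and from 5.45% to 11.3%. The site in coding exon 2, chr6:139694351-139694599 in the basal list and within 1000 bp of an annotated start, went from 249 to 199 bp and from 44.2% to 49.0%. The downstream site went from 349 to 199 bp and from 32.8% to 61.2%.

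The overexpression list held 3 more sites around CITED2. They were chr6:139697901-139698199, 2116 bp upstream (299 bp, 39.7%), chr6:139685551-139685749, 7195 bp downstream (199 bp, 42.6%), and the site 91566 bp upstream with CAAGGCCA (299 bp, 21.4%), which lies in LINC01625. The last was the only site with the SF-1 motif of this window, 24 bp from its centre. The single basal-only site, chr6:139612251-139612499, was at a start of TXLNB (249 bp, 51.7%) and held the AP-1 motif. CITED2 was therefore listed with fewer bases at each shared site but with more separate sites in overexpressing cells.

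PKNOX1 (chromosome 21, 44394620 to 44454041), the gene of PREP1, had the widest site of all near the 9 genes, at its promoter. It was chr21:44394251-44394849 in the basal list, 599 bp at 5.79%, and chr21:44394201-44394899 in the overexpression list, 699 bp at 5.66%, and covered the untranslated exon 1. In intron 2 a shared site, chr21:44427001-44427199 in the basal list, went from 199 to 349 bp and from 51.3% to 31.6%. A site of intron 5, chr21:44435951-44436249, was basal-only (299 bp, 48.8%). No PKNOX1 site held the SF-1 motif.

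The neighbours of PKNOX1 gave 3 further shared sites, each at a promoter. The U2AF1 promoter, of a splicing factor, went from 349 to 399 bp and from 5.98% to 3.75%. The NDUFV3 promoter went from 449 to 349 bp and from 12.9% to 6.92%, and the start region shared by WDR4 and NDUFV3 from 249 to 299 bp and from 35.3% to 16.1%. All 5 shared sites of the window thus stood earlier in the overexpression list and 4 were wider. Basal-only was also a site within NDUFV3 (149 bp, 69.8%), and overexpression-only were 2 sites in ERVH48-1 (149 bp at 80.2% and 249 bp at 46.2%) and 1 near U2AF1 (199 bp, 62.7%).

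Over the 25 shared sites of the 9 genes, 12 stood earlier in the overexpression list (48.0%, 27.8 to 68.7), against 46.9% of all shared basal sites, and 10 were narrower there (37.1% of all shared basal sites were). By gene the counts were small. For NR5A1 1 of 7 sites stood earlier (14.3%, 0.361 to 57.9), for CITED2 0 of 3 (upper limit 70.8%) and for PKNOX1 5 of 5 (lower limit 47.8%), with 2 of 4 for NR0B2 and for the GATA4 gene and 1 of 1 for NR0B1 and for GATA6. The median change in place was 15 percentage points later for NR5A1 and 0.212 points later over all 25, and sites of 1 window are not independent. The intervals of all genes overlap. That of PKNOX1 (47.8 to 100) lies just above 46.9%, and those of the other genes include it. A difference between genes was not tested.

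GC content moved with the direction over the whole list. Of all shared basal sites with less than 40% GC, 31.8% stood earlier in the overexpression list, and this share was 39.5% for 40 to 50% GC, 49.8% for 50 to 60% and 58.2% above. The shared sites of NR5A1 had a median GC content of 47.8% (39.8 to 61.0), those of PKNOX1 72.6% (34.2 to 73.1) and those of CITED2 60.9% (37 to 68.3). The part of GC content in the counts of the genes was not tested.

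**Figure D3:**
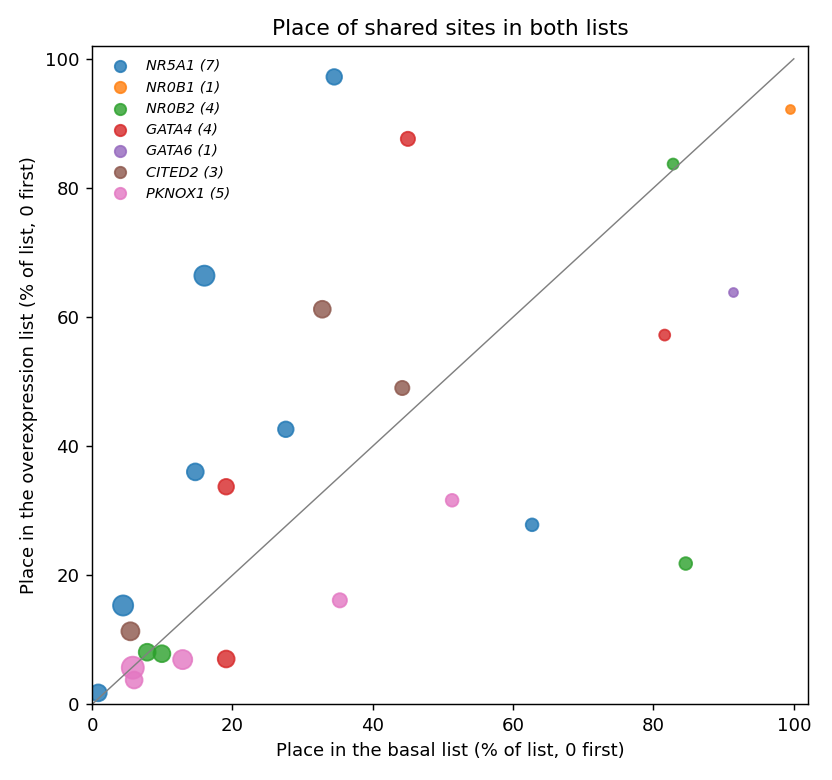
Place of the 25 shared sites, basal on the x axis and overexpression on the y axis, in percent of each list with the front at 0. Each point is 1 pair of overlapping sites, its colour gives the gene, its area grows with the basal width, and the line marks equal place. Of the NR5A1 points 6 of 7 lie above the line (later with overexpression) and all 5 PKNOX1 points lie below it.

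By position, 6 basal and 5 overexpression sites lay at a promoter of the 9 genes, and 4 and 3 in their bodies beyond the promoter. Promoters of other protein-coding genes held 9 and 8 sites, their bodies 8 and 8, and 12 and 13 were intergenic with regard to protein-coding genes. The nearest protein-coding gene was one of the 9 for 14 of 39 basal (35.9%) and 14 of 37 overexpression sites (37.8%). Most sites in these windows thus lay nearer to another protein-coding gene, which does not show the gene that a site acts on. Any coding promoter held 15 basal sites (38.5%, 23.4 to 55.4) and 13 overexpression sites (35.1%, 20.2 to 52.5), against 30.1% of all basal and 34.2% of all overexpression sites.

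Of the 9 genes, 5 had a basal promoter site (55.6%) and 4 an overexpression promoter site (44.4%), against 46.7% and 48.9% of all protein-coding genes. NR0B2, GATA6, CITED2 and PKNOX1 had one in both lists and NR5A1 in the basal list alone. NR5A2, NR0B1, WT1 and the gene of GATA4 had none. All 5 overexpression sites at these promoters were shared, where 40.3% of all overexpression sites were not. The share among all promoter sites is not given here.

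The distance of shared sites and sites of 1 list alone from the genes depended on the limit chosen. Of the 14 basal-only sites, 10 lay beyond 50 kb (median distance to the gene body 59067 bp), compared with 6 of the 25 shared basal sites (median 29352 bp). In the overexpression list 6 of 12 overexpression-only sites lay beyond 50 kb (median 46778 bp), compared with 6 of 25 shared (median 29402 bp). Within 10 kb lay 4 of 14 basal-only and 9 of 25 shared basal sites, and 5 of 12 overexpression-only and 9 of 25 shared overexpression sites. These counts are a description of few sites and were not tested. The 4 basal-only sites within 50 kb were the NR5A1 promoter and intron 6, PKNOX1 intron 5 and the NEIL2 promoter.

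Shared sites were wider than sites of 1 list. The shared basal sites ran from 99 to 599 bp with a median of 299 bp, and the basal-only sites from 149 to 399 bp with a median of 224 bp. The shared overexpression sites ran from 149 to 699 bp with a median of 299 bp, and the overexpression-only sites from 99 to 299 bp with a median of 199 bp. Over the whole lists the medians were 299 and 199 bp in the basal list and 249 and 199 bp in the overexpression list, so the same order was seen there.

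Place followed width. The median place was 27.6% for shared and 60.9% for basal-only sites, and 31.6% for shared and 66.5% for overexpression-only sites, against 32.7%, 67.4%, 35.5% and 67.8% over the whole lists. The 3 sites with the earliest place were the PSMB7 promoter, an NR6A1 site and the CITED2 promoter in the basal list. In the overexpression list they were the promoters of PSMB7, U2AF1 (3.75%) and PKNOX1 (5.66%). Median GC content was 53.0% for the 39 basal and 56.3% for the 37 overexpression sites, above the 45.4% and 49.9% of all sites.

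**Figure D4:**
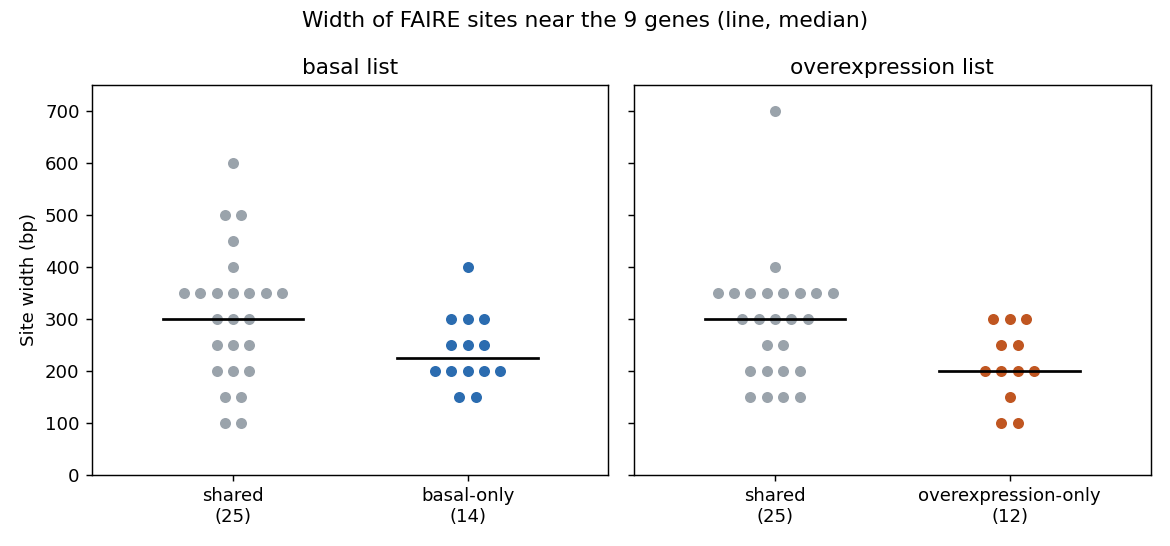
Width in bp of each site near the 9 genes, for shared sites and sites of 1 list alone, in the basal list (left) and the overexpression list (right). Each point is 1 site and the line is the median, which was 299 bp for shared sites in both lists, 224 bp for basal-only and 199 bp for overexpression-only sites.

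The SF-1 motif stood in 7 of 39 basal sites (17.9%, 7.54 to 33.5) and in 5 of 37 overexpression sites (13.5%, 4.54 to 28.8), against 12.7% of all basal and 12.6% of all overexpression sites. The intervals include both background shares. The shares moved with the window and the stretch searched. Within 50 kb they were 8.7% (2 of 23) and 8.0% (2 of 25). In 500 bp around the site centres they were 20.5% (8 of 39) and 27.0% (10 of 37), where the order of the lists was reversed. A longer stretch holds more matches by construction, and the share of all sites in 500 bp is not given here. The 500-bp shares therefore cannot be set against the background shares above. A control motif with the same letters in another order (GACATGCA or GACACGCA) stood in 0 of 39 (0.95% of all basal sites) and 1 of 37 (1.02% of all overexpression sites). Of the 7 basal sites with the SF-1 motif, 3 were basal-only (near NR0B1, NR0B2 and WT1), where 45.8% of all basal sites were. Of the 5 overexpression sites 2 were overexpression-only (near NR0B1 and CITED2), where 40.3% of all overexpression sites were.

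The motif of GATA factors (A or T, then GATA, then A or G) stood in 16 of 39 basal sites (41.0%, 25.6 to 57.9) and 16 of 37 overexpression sites (43.2%, 27.1 to 60.5), against 31.7% and 28.3% of all sites. The PREP1/MEIS motif TGACAG stood in 5 basal sites (12.8%, 4.3 to 27.4) and 7 overexpression sites (18.9%, 7.96 to 35.2), against 15.8% and 15.4%. A match to the consensus of the insulator protein CTCF, with at most 1 of its 12 letters mismatched, stood in 6 basal (15.4%, 5.86 to 30.5) and 9 overexpression sites (24.3%, 11.8 to 41.2), against 17.5% and 16.0%. All of these intervals include the background share, and a match in letters does not show that a factor is bound.

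Genes of 24 other co-regulators and factors of adrenal or gonadal development were read in the same way. Around them 132 basal sites were listed, 52 of them basal-only (39.4%), and 120 overexpression sites, 40 of them overexpression-only (33.3%), against 45.8% and 40.3% of all sites. More sites in the basal list were found for 15 genes and more in the overexpression list for 6, against 39.5% and 37.3% of all protein-coding genes. Each list had a promoter site for 14 of the 24 genes (58.3%, against 46.7% and 48.9% of all protein-coding genes), and 12 were the same genes.

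A promoter site in the basal list alone was found for 2 of the 24 genes, against 5.04% of all protein-coding genes. These were LHX9 and SOX9, factors of gonad and testis formation. For 2 of the 24, the coactivators NCOA1 and NCOA2, it was in the overexpression list alone. The share of all protein-coding genes for that list alone is not given here. A difference between these kinds of genes was not tested. WNT4, a signal of adrenal and ovarian development, had 5 basal and 6 overexpression sites, and PIAS1, a SUMO ligase that acts on SF-1, 12 and 17. SOX9 and RSPO3 had no overexpression site, with 1 and 2 in the basal list.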

How the data were processed

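The 4 samples were 2 FAIRE-seq and 2 input DNA libraries. The 2 site lists of the FAIRE libraries (1 per condition, grouped per the labels) were used. Per the submitters' processing notes the build was hg19 and the software CASAVA 1.8. The aligner, peak caller and threshold of the FAIRE libraries are not given in the sources used here. Per the file headers the deposited lists were browser tracks with a start and end, a peak number and a score, and the authors' score was 1000 for every peak, so it was not used. All starts lay on a grid of 50 bp. No depth was given.

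The annotation was GENCODE release 44, mapped to GRCh37, and coordinates are 1-based. Sites were assigned by a window of 100 kb, overlap of at least 1 bp and promoters of 1000 bp on either side of any transcript start, with python 3.11.15, numpy 2.4.6, pandas 2.3.3, scipy 1.17.1 and matplotlib 3.10.9. Scripts were tested on simulated sites. Shares have exact (Clopper-Pearson) 95% intervals. No test was possible with 1 library per condition. The 9 genes, the lists and the rules were chosen with earlier results of these data known. Sites were named if they lay at a promoter or in the body of one of the 9 genes or held the SF-1 motif nearest to it, otherwise the closest site of each list was named, and the earliest 3 and the widest. The other neighbours' sites, the E-box and CCAAT marks, the GATA mark and the WT1, CITED2 and NR5A1 sequences were chosen after values were seen. PECAM1, a marker, was not analysed here, and 2 genes of the lists are not reported here.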

Additional observations from a re-analysis of the deposited data

How the results depend on the processing

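Of 172 alternative values for 12 results, 152 stayed within the set limits (for counts a factor of 1.5) and 20 moved. Each result is a count, share or median of 1 list without a direction, so none could reverse. The limits were wide for shares. An SF-1 motif share of 27.0% in 500 bp, against 13.5% of overexpression sites, stayed within them. So did 8.7% of basal sites within 50 kb, against 17.9%. None of the 90 values that leave out 1 gene moved by these limits. Those for NR5A2 could not move because it had no site, nor could the overexpression values for WT1. Without NR5A1 the basal count fell from 39 to 27, which stayed within the limit. Basal sites numbered 23 within 50 kb, 13 within 10 kb, 14 with the gene as nearest, 25 among sites of at least the median width and 23 in the first 50% of the list. Overexpression sites numbered 14 within 10 kb, 14 with the gene as nearest, 22 among the wide sites and 22 in the first 50%. The basal-only share was 17.4% (4 of 23, 4.95 to 38.8) within 50 kb, against 45.8% of all basal sites. Promoter sites in the basal list were left for 2 genes under each of the stricter lists (wide sites, first 50%). The SF-1 motif share of basal sites was 0.0% within 10 kb and with the control letters, and that of overexpression sites was 32.4% with 7 letters (23% of all overexpression sites) and 2.7% with the control. The median place was 19.1% (basal) and 18.7% (overexpression) under each stricter list. Counts fall by construction in narrower windows and shorter lists. No paired analysis was possible because each condition had 1 library. The unknown depth limits every absence.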
